A study of Drosophila melanogaster with 4 samples.

Results

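The genes described here encode the subunits of the vacuolar H+-ATPase (V-ATPase), chosen as every gene of the count table whose symbol starts with Vha. There were 33 such genes of 17807 in all. They cover 14 subunits, with 13 genes for the V1 sector, 18 for the Vo sector and 2 for the Ac45 accessory subunit. Counts were compared between guts of wh7 females, which are homozygous for a mutant allele of dwdr4 (wuho) in all their cells, and guts of yw females (WT), both aged 7 days. Each genotype had 2 libraries, and a library was made from a pool of 20 to 30 whole guts, so a value is a mean over animals, gut regions and cell types. dwdr4 encodes the WD40 partner of an RNA methyltransferase that places m7G on tRNA.

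The V-ATPase is a rotary proton pump. Its peripheral V1 sector hydrolyses ATP and turns a central stalk, and the turning of the membrane ring in the Vo sector carries protons across the membrane. The pump acidifies lysosomes, endosomes and secretory vesicles in all cells, where it is also part of the platform through which amino acids activate TOR kinase. In specialised epithelia it sits on the plasma membrane. In the fly gut, copper cells of the middle midgut use it to secrete acid. Subunit a, encoded by the Vha100 genes, carries the proton path and helps to decide which membrane a pump is sent to, so its paralogs mark pumps of different places. Many other fly subunits also have paralogs, several of which are known mainly from the testis.

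The libraries held 93603837 to 101610356 counts. dwdr4 had 2 and 3 counts in wh7 replicates 1 and 2, against 1489 and 1256 counts in WT replicates 1 and 2. Of 10795 genes tested, 52 (0.482%) had an adjusted p under 0.05 by edgeR's quasi-likelihood test with Benjamini-Hochberg adjustment, 27 higher and 25 lower in wh7. No library stood against its label.

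Of the 33 V-ATPase genes, 24 were tested and 0 passed an adjusted p of 0.05 by edgeR's quasi-likelihood test. At an unadjusted p under 0.05 there was 1, Vha68-3, against 14.5% of all genes tested. With DESeq2's Wald test 1 of the 24 was called, again Vha68-3, against 7.96% of all genes. Fitted log2 fold changes of the 24 genes were above 0 for 12 and below 0 for 12, with a median of -0.0025 and a range from -2.33 (Vha68-3) to 0.69 (Vha100-4). The median over all genes tested was -0.02. In 13 of the 24 genes (54.2%) the CPM (counts per 1000000 counts of a library, scaled by TMM) of the genotypes did not overlap, 5 higher and 8 lower in wh7, against 46.7% of all genes tested in either direction.

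A gene for each of the 14 subunits had a mean of at least 50 CPM, and 17 members reached that level. Apart from Vha100-4, the remaining 16 of these had log2 fold changes from -0.17 to 0.11, with standard errors (SE) of 0.13 to 0.17. Their 95% confidence intervals lay within -0.57 and 0.52. The highest library of a gene was 1.06 to 1.27 times its lowest. With Vha100-4 counted, the median of that ratio over the 17 genes was 1.12, and over the 2926 genes of all kinds with at least 50 CPM it was 1.40. The median size of the log2 fold change was 0.09 over the 17 genes and 0.20 over the 2926.

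**Figure D1:**
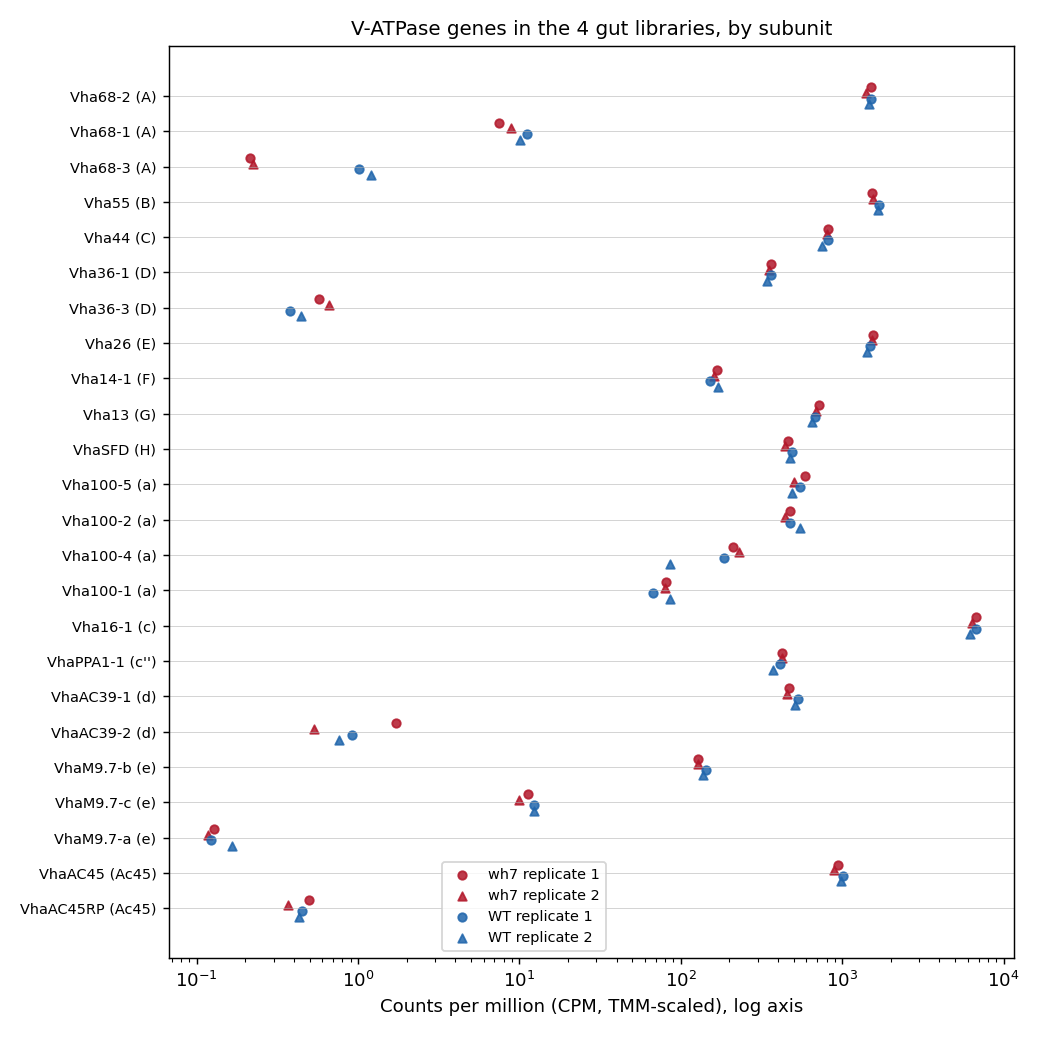
CPM on a log axis of the 24 V-ATPase genes tested, with the subunit in parentheses. Each point is 1 library, with wh7 in red and WT in blue. The 4 points of most genes above 50 CPM lie on each other, whereas those of Vha100-4, Vha68-3 and VhaAC39-2 are spread.

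The V1 sector begins with the catalytic head. Vha68-2, the catalytic subunit A that hydrolyses ATP, had 1509 and 1410 CPM in wh7 replicates 1 and 2, against 1503 and 1457 CPM in WT replicates 1 and 2. Vha55, the nucleotide-binding subunit B that alternates with A in the head, had 1532 and 1547 CPM in wh7, against 1693 and 1659 CPM in WT. The wh7 values of Vha68-2 spanned both WT values, whereas both wh7 values of Vha55 lay below both WT values. The log2 fold change was -0.02 (SE 0.14) for Vha68-2 and -0.12 (SE 0.14) for Vha55, and the adjusted p of Vha55 was 0.751 by edgeR's quasi-likelihood test.

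The central stalk, which turns inside the head, is made of subunits D and F. Vha36-1 (subunit D) had 362 and 353 CPM in wh7, against 365 and 343 CPM in WT. Vha14-1 (subunit F) had 168 and 161 CPM in wh7, against 152 and 171 CPM in WT. The genotypes overlapped for both, with log2 fold changes of 0.01 (SE 0.13) for Vha36-1 and 0.02 (SE 0.14) for Vha14-1.

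The outer stalks, which keep the head from turning with the ring, hold subunits C, E, G and H. Vha26 (subunit E) had 1563 and 1521 CPM in wh7, against 1496 and 1426 CPM in WT. Vha13 (subunit G) had 715 and 692 CPM in wh7, against 676 and 646 CPM in WT. Both wh7 values of either gene lay above both WT values, by a log2 fold change of 0.08 (SE 0.14) for Vha26 and 0.09 (SE 0.13) for Vha13. Vha44, the subunit C that in yeast leaves the pump when V1 and Vo come apart, had 812 and 802 CPM in wh7, against 822 and 755 CPM in WT. VhaSFD, the subunit H that in yeast silences free V1, had 461 and 445 CPM in wh7, against 487 and 475 CPM in WT. The genotypes overlapped for Vha44 (log2 fold change 0.03, SE 0.14), and for VhaSFD both wh7 values lay below both WT values (log2 fold change -0.09, SE 0.13). None of these shifts passed the test. The exons of Vha44 share 148 bases with Hmgs on the opposite strand, and whether the counting used the strand is not given in the sources used here.

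In the Vo sector, Vha16-1 encodes subunit c, of which several copies form the ring that carries the protons. It had 6748 and 6422 CPM in wh7, against 6745 and 6211 CPM in WT, and its log2 fold change was 0.02 (SE 0.15). Vha16-1 alone took 39.2% and 38.9% of the counts of all V-ATPase genes in wh7, against 38.9% and 37.9% in WT. Per kb of exon it was also the highest member, with a mean of 2123 CPM per kb over the 4 libraries, and Vha13 followed with 724 CPM per kb. VhaPPA1-1, the c″ subunit of the same ring, had 423 and 423 CPM in wh7, against 411 and 375 CPM in WT. Its wh7 values both lay above WT, with a log2 fold change of 0.11 (SE 0.14).

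VhaAC39-1 encodes subunit d, which couples the central stalk to the ring. It had 470 and 454 CPM in wh7, against 529 and 512 CPM in WT. Its log2 fold change of -0.17 (SE 0.13) was the lowest among the genes above 50 CPM, with an adjusted p of 0.641 by edgeR's quasi-likelihood test. VhaM9.7-b, the small membrane subunit e, had 128 and 127 CPM in wh7, against 144 and 137 CPM in WT. VhaAC45, the accessory subunit that is bound to Vo during assembly, had 937 and 896 CPM in wh7, against 1016 and 977 CPM in WT. For VhaAC39-1, VhaM9.7-b and VhaAC45 neither wh7 value reached the lower WT value, and the log2 fold changes of VhaM9.7-b (-0.14, SE 0.13) and VhaAC45 (-0.12, SE 0.14) were also near their SE. ATP6AP2, another accessory protein of the pump, does not carry the Vha name and was picked after its values were seen. It had 602 and 608 CPM in wh7, against 541 and 538 CPM in WT, a log2 fold change of 0.17 (SE 0.13) with an adjusted p of 0.650 by edgeR's quasi-likelihood test.

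**Figure D2:**
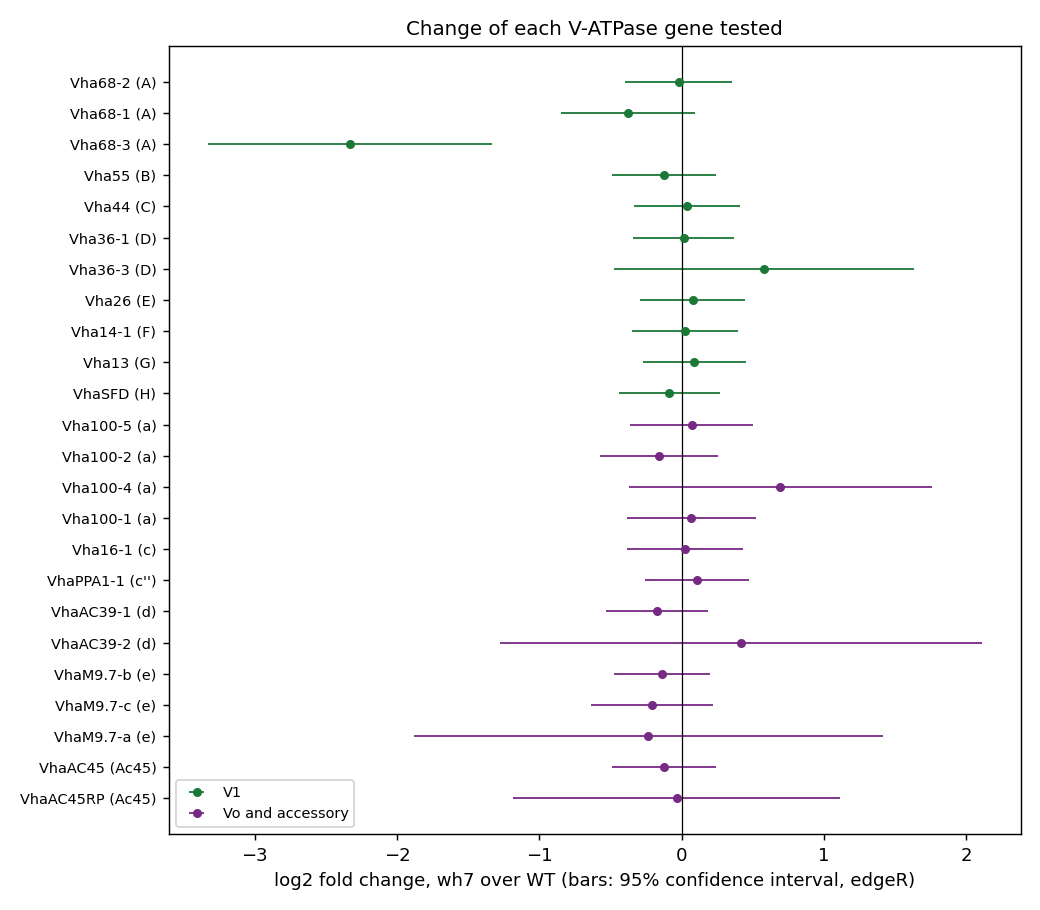
Log2 fold change, wh7 over WT, of the 24 V-ATPase genes tested, with 95% confidence intervals from edgeR's quasi-likelihood fit, V1 genes in green and the others in purple. The intervals of 23 genes hold 0, and that of Vha68-3 runs from -3.33 to -1.33. The interval of VhaAC39-2, which had few counts, is the widest of the 24, and that of Vha100-4 is the widest of the genes above 50 CPM.

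Summed over its genes, the V1 sector had 3353 and 3257 CPM per kb in wh7, against 3335 and 3239 CPM per kb in WT. The Vo sector had 3339 and 3189 CPM per kb in wh7, against 3349 and 3107 CPM per kb in WT. The ratio of V1 to Vo was thus 1.00 and 1.02 in wh7, against 0.996 and 1.04 in WT, and the genotypes overlapped for both sums and for their ratio. The log2 ratio of the genotypes' means was 0.01 for V1 and 0.02 for Vo. Of all counts of a library, the V-ATPase genes took 1.70% and 1.68% in wh7, against 1.80% and 1.58% in WT.

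Subunit a is the one subunit for which several paralogs were high at once. Vha100-5 had 588 and 503 CPM in wh7, against 549 and 491 CPM in WT. Vha100-2 had 473 and 443 CPM in wh7, against 472 and 551 CPM in WT. Vha100-1, which in fly neurons acts on synaptic vesicles, had 80.5 and 79.9 CPM in wh7, against 67.6 and 85.5 CPM in WT. The genotypes overlapped for these 3 genes, with log2 fold changes of 0.07 (SE 0.16) for Vha100-5, -0.16 (SE 0.15) for Vha100-2 and 0.07 (SE 0.17) for Vha100-1. Vha100-3 had 0 counts in every library. Of the exon bases of Vha100-5, 527 are shared with the antisense gene asRNA:CR44144, so its counts can hold reads of that gene if the strand was not used.

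Vha100-4, the a subunit known from the acid-secreting copper cells, differed between libraries more than any other member above 50 CPM. It had 210 and 230 CPM in wh7 replicates 1 and 2 (19622 and 23702 counts), against 186 and 86.2 CPM in WT replicates 1 and 2 (18231 and 7771 counts). Both wh7 libraries were higher than both WT libraries, but WT replicate 1 was near wh7 and WT replicate 2 was far below the other 3. The WT libraries differed 2.16-fold from each other, and the genotype means differed 1.62-fold, at 220 ± 14.0 CPM in wh7 and 136 ± 70.9 CPM in WT (SD, n = 2 each). The log2 fold change was 0.69 (SE 0.40), with an adjusted p of 0.526 by edgeR's quasi-likelihood test and 0.456 by DESeq2. It was 0.23 without WT replicate 2 (adjusted p 0.263 by edgeR's quasi-likelihood test) and 1.35 without WT replicate 1, where the adjusted p was 0.0299 by the same test. In that fit the lone WT library is assumed to vary like the wh7 pair. Over all settings tried the adjusted p of Vha100-4 ran between 0.0299 and 1.00, and the size and the call of its difference rested on which WT library was used. Of its exon bases, 47 are shared with cona on the opposite strand.

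Per kb of exon, Vha100-4 made 17.1% and 20.2% of all subunit a in wh7, against 16.1% and 7.97% in WT. The share was 6.60 percentage points higher in wh7 over all libraries, 2.51 points without WT replicate 2 and 10.7 points without WT replicate 1. Vha100-2 ran the other way, with 32.6% and 32.8% in wh7, against 34.6% and 43.1% in WT. Vha100-5 made 44.8% and 41.2% in wh7, against 44.4% and 42.4% in WT. Vha100-1 made 5.44% and 5.80% in wh7, against 4.85% and 6.56% in WT. The order of the 4 paralogs from Vha100-5 down to Vha100-1 was the same in 3 of the 4 libraries, and in WT replicate 2 Vha100-2 stood just above Vha100-5.

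Genes of a list written for the middle midgut were read beside Vha100-4, and whether each is particular to that region was not tested. Of the 9 genes of that list, 9 were tested, 6 were higher and 3 lower in wh7, and none was at 0. By edgeR's quasi-likelihood test 0 were called and 1 higher and 1 lower gene had an unadjusted p under 0.05, against 14.5% of all genes tested. DESeq2 called 2, CAH1 and Ctr1B, against 7.96% of all genes tested. Their summed level was 4262 and 4142 CPM in wh7, against 3370 and 5403 CPM in WT. By their p-values the leading genes were CAH1, a carbonic anhydrase, with a log2 fold change of 1.03 (SE 0.13, adjusted p 0.0822 by edgeR's quasi-likelihood test), and Ctr1B, a copper importer, with -1.88 (SE 0.51, adjusted p 0.223 by the same test). The next genes of this list were picked after their values were seen. labial (lab), the homeotic gene that specifies copper cells, had 27.5 and 30.5 CPM in wh7, against 23.3 and 13.1 CPM in WT. WT replicate 2 was the lowest library for lab as for Vha100-4. WT replicate 2 was the lowest library for 3 of the 9 genes (lab, Ptx1 and ct) and the highest for 3 others (alpha-Spec, kst and Ctr1B). It also had the highest sum, but kst was the largest part of the sum in every library. kst had 2333 and 2242 CPM in wh7, against 1651 and 3093 CPM in WT, so the sum says little about the genes with lower levels. lab had a log2 fold change of 0.67 (SE 0.31) with an adjusted p of 0.441 by edgeR's quasi-likelihood test. The homeobox gene dve had 154 and 146 CPM in wh7, against 122 and 124 CPM in WT, and ct had 17.1 and 14.4 CPM in wh7, against 14.4 and 13.0 CPM in WT. The part of copper cell number, or of the amount of middle midgut in a pool, in the Vha100-4 values was not tested. In bulk RNA, fewer cells of a type and less RNA per cell cannot be told apart.

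**Figure D3:**
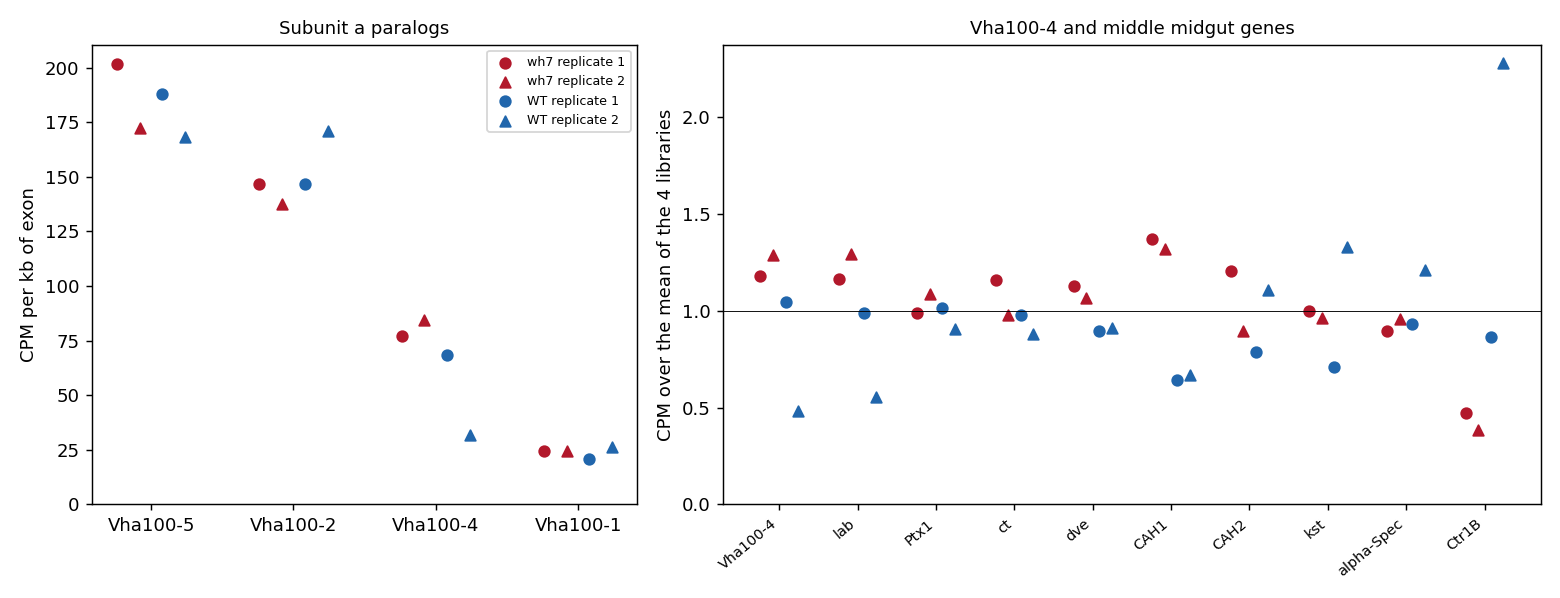
Left, CPM per kb of exon of the 4 subunit a genes with counts, 1 point a library, wh7 in red and WT in blue. Right, CPM of Vha100-4 and of the 9 middle midgut genes, each divided by its mean over the 4 libraries. WT replicate 2 (blue triangle) is the lowest library for Vha100-4, with 86.2 CPM, and for lab, with 13.1 CPM, and the highest for Vha100-2 and for kst, alpha-Spec and Ctr1B.

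For every other subunit with paralogs, 1 gene made nearly all of the mRNA per kb in all 4 libraries. Vha68-2 made 99.2% to 99.5% of subunit A, VhaAC39-1 at least 99.48% of subunit d, Vha36-1 at least 99.85% of subunit D and VhaAC45 at least 99.94% of Ac45. Vha14-1, Vha16-1 and VhaPPA1-1 had all the counts of subunits F, c and c″. Subunit e was shared most, with VhaM9.7-b at 88.4% to 89.8% and VhaM9.7-c at 10.03% to 11.3%. VhaM9.7-c had 11.3 and 9.91 CPM in wh7, against 12.3 and 12.2 CPM in WT, with both wh7 values lower and a log2 fold change of -0.21 (SE 0.16). Vha68-1, the next paralog of subunit A, had 7.50 and 8.84 CPM in wh7, against 11.1 and 10.1 CPM in WT. Its wh7 values were also both lower, with a log2 fold change of -0.37 (SE 0.17) and an adjusted p of 0.441 by edgeR's quasi-likelihood test.

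The largest fitted change of any member was in Vha68-3, the minor paralog of the catalytic subunit A. It had 20 and 23 counts in wh7 replicates 1 and 2, against 99 and 108 counts in WT replicates 1 and 2, or 0.215 and 0.223 CPM in wh7, against 1.01 and 1.20 CPM in WT. The genotypes did not overlap, and the fitted level was 5.02-fold higher in WT. The log2 fold change was -2.33 (SE 0.37) with an unadjusted p of 0.00245, and the adjusted p was 0.105 by edgeR's quasi-likelihood test and 0.0011 by DESeq2. Over all settings tried its adjusted p ran between 0.0011 and 0.615. When single libraries were left out the log2 fold change was between -2.44 and -2.21, and it was not called by edgeR's quasi-likelihood test in any of these fits. Per kb, Vha68-3 made 0.016% and 0.018% of subunit A in wh7, against 0.075% and 0.092% in WT. Of 11 testis genes read beside it, 8 (betaTub85D, Mst87F, aly and can among them) had 0 counts in all libraries. The summed level of the list was 3.84 and 4.05 CPM in wh7, against 2.32 and 3.37 CPM in WT. Most of it was topi, with 2.78 and 2.94 CPM in wh7, against 1.82 and 2.60 CPM in WT. The guts were of females, so this list cannot tell where the Vha68-3 counts came from, which was not tested. The 2 genes tested were fzo, with a log2 fold change of 0.89 (SE 0.37), and topi, with 0.37 (SE 0.27), and neither was called by edgeR's quasi-likelihood test or DESeq2.

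The other members with few counts did not pass the test. Vha36-3, a paralog of subunit D, had 53 and 68 counts in wh7, against 37 and 40 counts in WT, a log2 fold change of 0.58 (SE 0.39). VhaAC39-2, a paralog of subunit d, had 159 and 55 counts in wh7, against 89 and 69 counts in WT, so that its wh7 libraries lay on either side of WT. Its log2 fold change of 0.42 (SE 0.63) turned to -0.65 without wh7 replicate 1. VhaAC45RP had 0.493 and 0.369 CPM in wh7, against 0.450 and 0.433 CPM in WT, and VhaM9.7-a had 12 counts in both wh7 libraries, against 12 and 15 counts in WT.

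**Figure D4:**
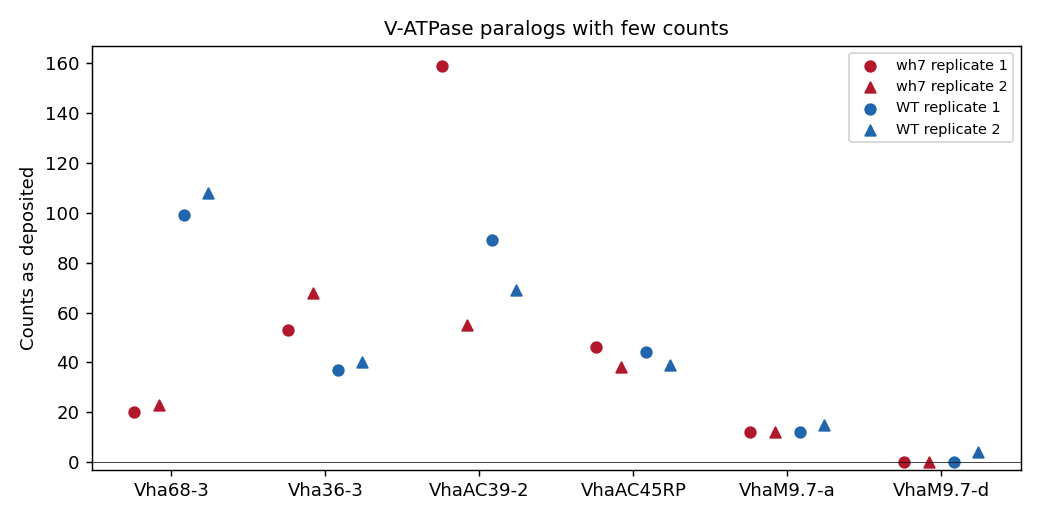
Deposited counts of 6 V-ATPase paralogs with a mean under 2 CPM, 1 point a library, wh7 in red and WT in blue. For Vha68-3 the wh7 libraries, at 20 and 23 counts, lie well below WT, at 99 and 108 counts, and for VhaAC39-2 the wh7 libraries are farther apart than the genotypes.

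The remaining 9 members were not tested. VhaM9.7-d had 0 counts in both wh7 libraries, against 0 and 4 counts in WT. The other 8 had 0 counts in all 4 libraries, namely Vha100-3, Vha14-2, Vha16-2, Vha16-3, Vha16-4, Vha16-5, Vha36-2 and VhaPPA1-2. A count of 0 allows up to 3 counts per library, or 0.030 to 0.032 CPM at these depths, so expression below that level was not detectable. This limit covers counting error only. Of the 595 exon bases of Vha16-2, 503 are shared with asRNA:CR46049 on the opposite strand. How reads over shared bases were assigned is not given in the sources used here, so the limit may not hold for Vha16-2.

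Genes that work with the pump were read from lists written from general knowledge, and the genes said to lead a list are those with the smallest p. Of 6 genes for V-ATPase assembly, V-ATPase transcription and the GATOR1 complex, 2 were higher and 4 lower. By edgeR's quasi-likelihood test 0 were called, nor did any have an unadjusted p under 0.05 or a call by DESeq2. Iml1 and Nprl2, subunits of the GATOR1 complex that restrains TOR at the lysosome, led the list with log2 fold changes of 0.52 (SE 0.19) and -0.30 (SE 0.17). Mitf, the fly homologue of TFEB and a known activator of V-ATPase genes, was picked after its values were seen. It had 116 and 117 CPM in wh7, against 122 and 108 CPM in WT, a log2 fold change of 0.02 (SE 0.14). Of 11 genes of the lysosomal TOR platform, 7 were higher and 4 lower, with a median of 0.04. By edgeR's quasi-likelihood test 0 were called and 0 had an unadjusted p under 0.05, and DESeq2 called 0. The leading genes were the Rag GTPase gene RagA-B (0.34, SE 0.14) and Lamtor3 (0.30, SE 0.15). Among all genes tested, 0.482% were called by edgeR's quasi-likelihood test and 7.96% by DESeq2. An unadjusted p under 0.05 by edgeR's test was found for 14.5%, so counts of 0 in lists this short say little.

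Of 27 lysosomal genes, 16 were higher and 11 lower in wh7. Their median log2 fold change was 0.02. By edgeR's quasi-likelihood test 0 were called, and 2 higher and 4 lower genes had an unadjusted p under 0.05, against 14.5% of all genes tested. DESeq2 called 3 (tobi, Cln7 and Hexo1), against 7.96% of all genes tested. The genes with the smallest p were Cln7, a lysosomal transporter gene, and tobi, an alpha-glucosidase gene. Cln7 had 35.2 and 42.6 CPM in wh7, against 87.2 and 68.3 CPM in WT (log2 fold change -0.9996, SE 0.20, adjusted p 0.141 by edgeR's quasi-likelihood test). tobi had 1177 and 1310 CPM in wh7, against 578 and 356 CPM in WT (log2 fold change 1.41, SE 0.28, adjusted p 0.141 by the same test). The genotypes did not overlap for these 2 genes, but both were named for their small p, so their changes do not stand for the list.

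Markers of cell types that a gut pool can hold were read for the same libraries, since V-ATPase levels differ between cells. Malpighian tubules, which are rich in plasma membrane V-ATPase, can stay attached to a dissected gut. Of 12 tubule genes, 3 were higher and 9 lower, and none was at 0. By edgeR's quasi-likelihood test 0 were called and 1 higher and 1 lower gene had an unadjusted p under 0.05, and DESeq2 called 2, Oatp58Db and SecCl. Their summed level was 670 and 631 CPM in wh7, against 957 and 703 CPM in WT, and the leading genes were Oatp58Db, with a log2 fold change of 2.65 (SE 0.24, adjusted p 0.0509 by edgeR's quasi-likelihood test), and SecCl, with -1.46 (SE 0.30). All 8 enteroendocrine genes were lower in wh7, with summed levels of 243 and 258 CPM in wh7, against 472 and 451 CPM in WT. Of these, AstA and AstC, which encode allatostatin peptides, fell by edgeR's quasi-likelihood test, with log2 fold changes of -1.84 (SE 0.14, adjusted p 0.0389) and -1.60 (SE 0.14, adjusted p 0.0466). In the same list 6 genes had an unadjusted p under 0.05 by that test, and DESeq2 called 5. With either wh7 library left out, 0 genes of any kind were called. All 6 fat body genes were lower too, led by Yp1 (-1.01, SE 0.24) and Yp2 (-1.07, SE 0.27), with sums of 6215 and 6014 CPM in wh7, against 9176 and 14560 CPM in WT. Of these, 0 were called by edgeR's quasi-likelihood test, 3 had an unadjusted p under 0.05, and DESeq2 called 3 (Yp1, Yp2 and Yp3). Of all 10795 genes tested, 5678 were lower in wh7, and 52 (0.482%) were called by edgeR's quasi-likelihood test. By the same test 14.5% had an unadjusted p under 0.05, and 7.96% were called by DESeq2.

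Among 8 enterocyte genes 4 were higher and 4 lower, led by Jon65Ai (-0.75, SE 0.22) and alphaTry (-0.48, SE 0.15). Amy-p (0.94, SE 0.30) and Amy-d (0.87, SE 0.32) went the other way, also at an unadjusted p under 0.05 by edgeR's quasi-likelihood test. The summed level of the list was 60970 and 55370 CPM in wh7, against 35650 and 49330 CPM in WT, with Amy-p as its largest part. Of 6 neuronal genes 2 were higher and 4 lower, led by nSyb (-1.11, SE 0.17) and para (0.65, SE 0.34). Of 4 progenitor genes 1 was higher and 3 lower, led by esg (-0.41, SE 0.16) and Su(H) (-0.27, SE 0.20). Dl and hdc, also written in that list, matched no symbol and were not read. Of 6 visceral muscle genes 2 were higher and 4 lower, led by up (-0.29, SE 0.26) and Mhc (-0.19, SE 0.22). Of 2 ovary genes tested, Vm26Aa was at -2.35 (SE 0.83) and vas at 0.61 (SE 0.61). Vm26Aa rested on few counts, 3 and 3 in wh7 against 10 and 20 in WT. The summed level of the ovary list was 1.115 and 0.340 CPM in wh7, against 0.563 and 0.455 CPM in WT. None of the genes of these 5 lists was called by edgeR's quasi-likelihood test. At an unadjusted p under 0.05 there were 4 enterocyte genes, 1 neuronal gene and 1 ovary gene, against 14.5% of all genes tested. DESeq2 called 1, nSyb, against 7.96% of all genes tested. The part of cell composition in the V-ATPase values was not tested.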

How the data were processed

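RNA-seq of 4 gut libraries, 2 of wh7 and 2 of WT, was analysed. The authors trimmed reads with Trimmomatic 0.36, aligned them with HISAT2 and quantified them with StringTie 2.1.4, per the labels. The authors deposited whole-number counts per gene without normalization. How these were derived from the StringTie estimates is not given in the sources used here. The genome build and the use of strand are not given in the sources used here. A deposited table of the authors' own comparison holds fold changes, p-values and 4 columns of normalized values, none of which was used. Its symbol column, of the unit other, named 56 genes (Vha44 among them) beyond the 17710 of 17807 identifiers that matched the reference table, and 41 had no symbol. The depth was 93603837 to 101610356 counts per library.

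Genes were kept by filterByExpr, scaled by TMM and compared with edgeR 4.0.16's quasi-likelihood test (R 4.3.3, limma 3.58.1) with genotype as the only term and Benjamini-Hochberg adjustment over all 10795 genes tested, at an adjusted p under 0.05. SE is the log2 fold change over the root of F. DESeq2 1.42.0 was an alternative, as were other scalings and filters, a replicate block and leaving out each library. CPM per kb used the union of a gene's exons in BDGP6.54. Tested on simulated data for wh7 against WT (10584 genes), the fit had a slope of 1.01 and recovered 129 of 150 genes changed at least 4-fold, and 23 of its 156 calls (14.7%) were false. The labels do not say how the pools were bred, so p-values measure the spread between these samples. The paper obtained homozygous wh7 females by crossing wh7 carriers and used the yw strain as its wild type. Strain background and the dwdr4 allele therefore cannot be told apart here.

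The members and lists were chosen with earlier results of these data known. The lists are assembly and regulation (with GATOR1), lysosome, lysosomal TOR platform, middle midgut, Malpighian tubule, testis, neurons, enterocytes, enteroendocrine cells, progenitors, visceral muscle, ovary and fat body. Written symbols that matched no gene symbol were left out. Matched were 6 of 8 symbols for assembly and regulation, 27 of 32 for lysosome and 11 of 12 for the TOR platform. For enterocytes 8 of 9 matched, for progenitors 4 of 6 and for ovary 5 of 6. Values per library are given for the main paralog of each subunit, all subunit a genes and members with an unadjusted p under 0.05. Of each list the called genes or, where none, the 2 with the smallest p are named. Sequences and promoters were not analysed here.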

Additional observations from a re-analysis of the deposited data

How the results depend on the processing

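Across all genes, 52 calls became 30 with no filter on low counts, 859 with DESeq2, 0 with the replicate block, 99 with a crossed block (wh7 replicate 1 with WT replicate 2, added after seeing the data) and 0 to 921 when single libraries were left out. There were 0 without either wh7 library, 401 without WT replicate 1 and 921 without WT replicate 2. Of the V-ATPase genes, 1 was called with DESeq2 (Vha68-3) and 0 to 1 when single libraries were left out (Vha100-4 without WT replicate 1), and no other setting called any. Their median log2 fold change was -0.0953 to 0.0402 when single libraries were left out. The replicate numbers were not shown to pair libraries: the differences between replicates 1 and 2 of the genotypes had a correlation of -0.28 across 10795 genes. The block called 0 members, as did the fit without it, so that count says nothing about pairing. Of 24 members, 15 kept the sign of their change in each setting that tested them, the crossed block not being read for this. The other 9 turned only when a library was left out, with ranges of -0.0928 to 0.24 for Vha100-1, -0.0517 to 0.18 for Vha100-5, -0.0596 to 0.10 for Vha14-1, -0.0410 to 0.0844 for Vha16-1, -0.0345 to 0.0594 for Vha36-1, -0.0319 to 0.0969 for Vha44, -0.0745 to 0.0296 for Vha68-2, -0.65 to 1.03 for VhaAC39-2 and -0.26 to 0.16 for VhaAC45RP. The cause was not tested. With 2 libraries per genotype, the intervals of the 16 main genes other than Vha100-4 reach as far as -0.57 and 0.52 on the log2 scale, so smaller differences may be missed, and members under 2 CPM are limited by their counts.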
